A study of Mus musculus with 15 samples.

Results

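Exc_12 is one of the 26 high-resolution clusters of excitatory neurons that the authors assigned to cells of the mouse prefrontal cortex (PFC), and the cells described here are those to which the deposited table of cells gives that name. They numbered 1124 of the 35360 retained cells of the series and 1124 of the 20377 cells of all excitatory clusters. Of these, 805 came from 12 libraries of adult mice (P60) and 319 from 3 libraries of mice at P21. The cluster is not the subtype Exc-12 among the coarser classes of the study, which is marked by Tshz2: that gene was at 0.768 ± 1.25 CPM (UMIs of the gene scaled to a library total of 1000000; mean ± SD, n = 12 libraries) in cluster Exc_12 and at 2099 ± 186 CPM in cluster Exc_21.

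All mice were male C57BL/6N, and the labels name no allele. The adult mice, given as 8 to 10 weeks old in the labels, had self-administered cocaine or saline through an intravenous line and were taken in the maintenance phase, after 48 h of withdrawal or after 15 days of withdrawal, with 2 libraries for each of the 6 groups. The mice at P21, given as 3 weeks old, had no self-administration. Each adult library held the pooled PFC of 2 mice, so libraries and not animals are the replicates. The sources give 4 mice in all for the 3 libraries of P21, without saying which mice entered which library, so p-values may in part measure technical spread. Since no library held both ages, age and library preparation cannot be told apart. By the paper's methods the adult mice, saline controls included, also had food restriction, food training and jugular catheterisation. Age cannot be told apart from these procedures either. One tag of the labels names the nucleus accumbens (NAc), whereas titles, source names and the paper name the PFC. The 8 listed excitatory markers, among them Snap25, Slc17a7, Neurod2, Neurod6, Camk2a, Nrgn and Emx1, summed to 5651 to 8267 CPM in the Exc_12 cells of the P60 libraries.

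Pyramidal neurons of the cortex release glutamate and differ by layer and by where their axons go. Intratelencephalic neurons of layer 6 send axons within the cortex and to neighbouring forebrain areas, whereas corticothalamic neurons of the same layer project to the thalamus and near-projecting neurons stay local. In the mouse, intratelencephalic cells of deep layer 6 are known for the kappa opioid receptor gene Oprk1, the zinc finger factor gene Osr1 and the heparan sulfate sulfatase gene Sulf1.

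Set against these marker lists, the Exc_12 cells were highest for layer 6 intratelencephalic cells relative to the other excitatory cells pooled. The paper itself shows Oprk1, Cdh9 and Sema3c of that list for this cluster. The list is thus not independent of these data, and its sum is a description only. The 8 markers listed for layer 6 intratelencephalic cells (Oprk1, Cdh9, Osr1, Sulf1, Sema3c, Col23a1, Col27a1 and Fst) summed to 175 to 252 CPM in the Exc_12 cells of the P60 libraries and to 21.2 to 38.5 CPM in the other excitatory cells of the same libraries. The sum rested on the first 5 of them, since Col23a1, Col27a1 and Fst were at 7.02 ± 6.19, 1.99 ± 1.86 and 1.13 ± 1.77 CPM in Exc_12. In Exc_13, the most alike cluster, the first 5 had P60 means of 78.1, 45.2, 26.2, 32.0 and 23.2 CPM. High levels of these genes were thus not particular to Exc_12. The markers of corticothalamic cells summed to 65.8 to 194 CPM in Exc_12 against 469 to 860 CPM in the other excitatory cells. The near-projecting markers did not exceed 4.61 CPM, and those of layer 6b did not exceed 13.9 CPM, with Nxph4 and Moxd1 at 0. In the other excitatory cells the layer 6b sum was 1.78 to 10.9 CPM. The layer 5 pyramidal tract markers overlapped, at 61.73 to 128.3 CPM in Exc_12 and 53.71 to 110.1 CPM in the other excitatory cells. The endothelial markers were higher in Exc_12 without overlap, at 43.33 to 85.05 CPM against 16.04 to 36.63 CPM. The part of endothelial transcripts in the levels of Exc_12, that of Dcn below included, was not tested. The 6 markers of the claustrum and of layer 6 Car3 cells summed to 126 to 398 CPM in Exc_12 and to 259 to 427 CPM in the other excitatory cells. The first saline library of maintenance was the highest. Of these, Gnb4 was at 101 ± 20.7 CPM in Exc_12, above all other clusters but Exc_14, and Synpr at 31.1 ± 24.3 CPM, below its mean of 252 CPM over the other clusters. Car3 had a UMI in 0 of 805 Exc_12 cells, which allows a share of cells with a UMI, not of cells expressing it, of up to 0.457% by the exact binomial interval. It had one in only 2 of 13638 other excitatory cells.

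Single cells carried few of these transcripts at a time. Of the 805 P60 cells, 161 had no UMI (a counted mRNA molecule) of the 5 markers Oprk1, Osr1, Cdh9, Sulf1 and Sema3c, 263 had UMIs of 1, 210 of 2, 131 of 3, 36 of 4 and 4 of all 5. Of the 319 P21 cells, 107 had none. Exc_12 cells were also shallow for excitatory neurons. Their median was 11498 UMIs and 3601 genes per cell at P60, rank 22 of the 26 clusters by UMIs, and 6180 UMIs and 2589 genes at P21, rank 26. In all, the Exc_12 cells of a library held 286019 to 1444502 UMIs of the genes used at P60 and 473194 to 738794 at P21. Of the P21 cells, 8 carried another class in the deposited table (4 microglia, 2 oligodendrocyte precursors, 1 endothelial cell and 1 newly formed oligodendrocyte), and libraries shared between 0 and 27 cell barcodes per pair, of which 1 was shared among Exc_12 cells. The inhibitory markers summed to 0 to 215 CPM at P60, the upper value resting on 1 cell described below.

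Exc_12 made up 5.57% of all excitatory cells at P60, the 5th largest of 26 clusters, and 5.38% at P21, the 8th largest. The share in single libraries ran from 3.57% to 10.95% at P60 and was 3.55%, 5.81% and 7.41% in the 3 libraries of P21. In saline libraries it was 7.17% and 8.99% at maintenance, 9.20% and 3.57% at 48 h, and 4.47% and 4.52% at 15 days. In cocaine libraries it was 3.68% and 10.95% at maintenance, 7.50% and 4.27% at 48 h, and 4.47% and 6.19% at 15 days. The groups overlapped at each time point. The mean was 6.18% ± 2.73 in cocaine and 6.32% ± 2.46 in saline libraries (SD, n = 6 each). The difference of -0.141 percentage points did not pass an exact two-sided permutation test within time points (p = 0.972, 216 regroupings, the smallest p they can give being 0.0093).

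Levels of genes in Exc_12 were set beside those in the other 25 excitatory clusters as a description only, since the clusters were built from these genes. By the correlation of mean log2(CPM + 1) over 7776 genes, which share libraries and depth, the clusters most alike were Exc_13 (Pearson r = 0.983, 157 genes over 2-fold apart), Exc_14 (0.961, 372 genes) and Exc_7 (0.946, 474 genes). Exc_13 had 644 cells in the series, 443 of them at P60. Of the 6017 genes at 20 CPM or more in Exc_12, 82 were over 2 times their mean over the other clusters, 96 were highest in Exc_12 and 1, Dcn, was over 2 times the next cluster.

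**Figure D1:**
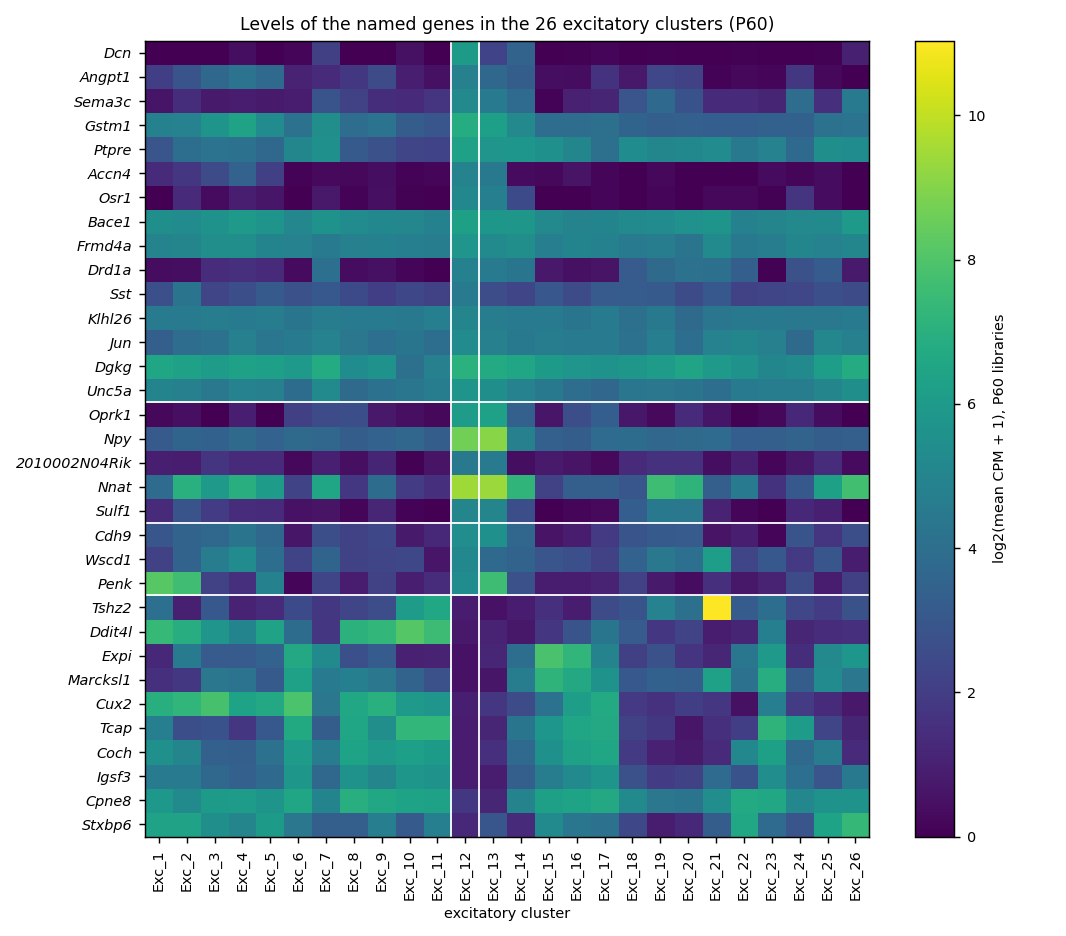
Colour gives log2(mean CPM + 1) over P60 libraries with at least 10 cells for each of the 26 excitatory clusters (columns) and each named gene (rows). White vertical lines bracket Exc_12, and white horizontal lines separate genes named for their ratio to the next cluster, for their ratio to the mean of the others, 3 further genes, and genes named for low levels; Dcn is at 63.3 CPM in Exc_12 and 10.5 in Exc_14, whereas Oprk1, Npy and Nnat are high in both Exc_12 and Exc_13.

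Dcn encodes decorin, a small proteoglycan of the extracellular matrix that binds collagen, and lies on chromosome 10 (96942245 to 96980777, plus strand, NCBIM37). In the saline libraries its level in Exc_12 was 3.46 and 31.4 CPM at maintenance, 37.4 and 108 at 48 h, and 89.2 and 91.4 at 15 days. In the cocaine libraries it was 13.98 and 37.1 at maintenance, 64.3 and 31.9 at 48 h, and 162 and 89.3 at 15 days. The libraries of 15 days were thus the highest in each treatment except that the saline library of 48 h at 108 CPM exceeded 3 of those 4. The mean was 63.3 ± 46.1 CPM (SD, n = 12), 6.03 times that of the next cluster, Exc_14 (10.5 ± 11.3), and Dcn was higher in Exc_12 than in Exc_13 in 12 of 12 P60 libraries.

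The Dcn UMIs were spread over many cells. At P60, 201 of 805 Exc_12 cells (25.0%, exact 95% interval 22.0 to 28.1%, which covers counting error only) had a UMI, against 12 of 443 Exc_13 cells (2.71%), 0.601% of all other excitatory cells, 0.342% of inhibitory neurons and 0.2% of astrocytes. Endothelial cells, a class in which Dcn also occurred, had a UMI in 5.69%. With every cell thinned to 5000 UMIs, which left out 73 of the 805 cells, the share was 18.03% in Exc_12, 1.4% in Exc_13 and 0.322% in other excitatory cells. Median depths were 11498 UMIs in Exc_12, 13459 in Exc_13, 13759 in other excitatory cells and 3512 in astrocytes. Among libraries the share of Exc_12 cells with a Dcn UMI ran from 4.35% (1 of 23 cells, saline at maintenance) to 38.5% (45 of 117 cells, cocaine at 15 days).

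At P21 the same gene was sparse. Dcn was at 27.4, 14.8 and 0 CPM in the 3 libraries, and 15 of 319 cells (4.7%) had a UMI, beside 9 of 201 Exc_13 cells (4.48%). The plot of shares of cells shows the gap between Exc_12 and Exc_13 at P60 and none of that size at P21.

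**Figure D2:**
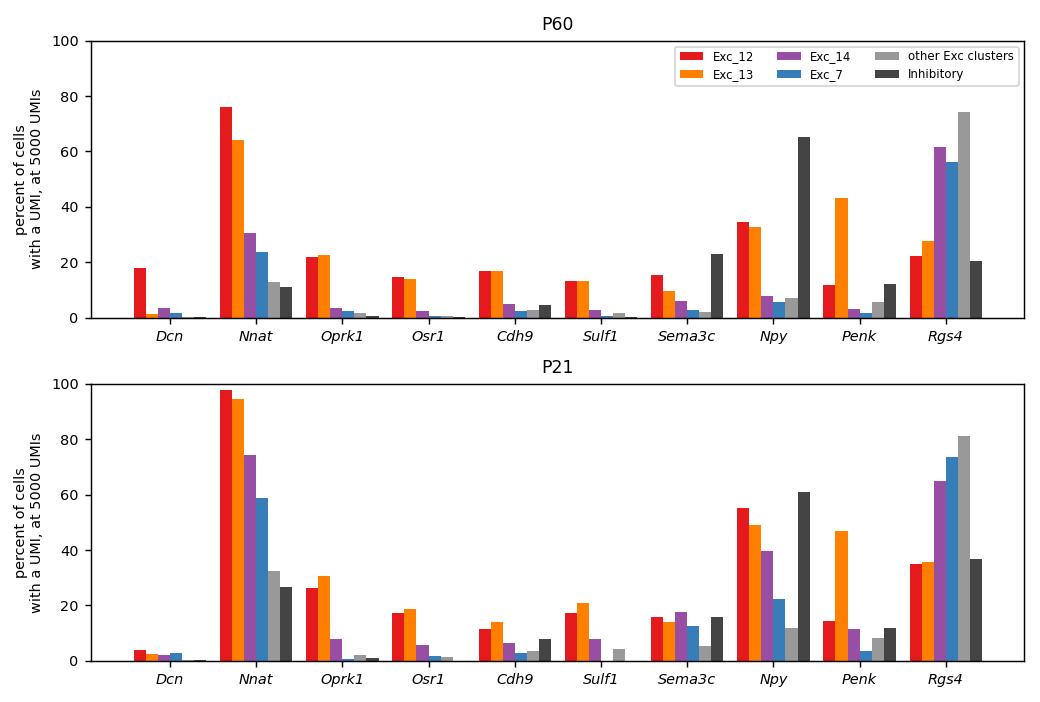
Bars give the percent of cells with at least 1 UMI of each gene after thinning each cell to 5000 UMIs (y axis, 0 to 100) in Exc_12, the 3 most alike clusters, all other excitatory cells and inhibitory neurons, at P60 (top) and P21 (bottom). Dcn stands apart in Exc_12 at P60 (18.03% against 1.4% in Exc_13), and Penk in Exc_13 (43.4% against 11.8% in Exc_12).

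The other genes named for their ratio to the next cluster were closer to it. Angpt1, the ligand of the receptor Tie2, was at 27.2 ± 9.41 CPM in Exc_12 and 17.2 ± 8.02 in Exc_4. Sema3c, a secreted axon guidance protein, was at 35.3 ± 14.6 CPM against 23.2 ± 9.8 in Exc_13. Gstm1 (a glutathione transferase), Ptpre (a protein tyrosine phosphatase) and Frmd4a were each higher in Exc_12 than in Exc_13 in 12 of 12 libraries, with 115 ± 31.9, 77.8 ± 18.8 and 53.7 ± 7.83 CPM in Exc_12. Accn4 (now Asic4, of the acid-sensing ion channel family), Osr1, Bace1 (the beta-secretase), Drd1a (now Drd1, the D1 dopamine receptor), Klhl26, Jun, Dgkg (a diacylglycerol kinase) and Unc5a (a netrin receptor) had ratios to the next cluster of 1.17 to 1.41. For all 13 of these genes the ranges of 1 SD around the means of Exc_12 and of the next cluster overlapped.

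Sst, the somatostatin gene of a class of interneurons, met the same rule through 1 cell. It was at 203 CPM in the first cocaine library of 15 days, where 204 of 220 UMIs came from 1 of 117 cells. Of all Exc_12 cells at P60, 7.33% had an Sst UMI, beside 7.49% of the other excitatory cells, and Gad1, the GABA synthesis gene of interneurons, had one in 1.99% and 1.97%.

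Genes named for their ratio to the mean of the other clusters were mostly shared with Exc_13. Oprk1 was at 65.7 ± 18.7 CPM in Exc_12 and 78.1 ± 36.5 in Exc_13, 13.4 times the mean of the other clusters. Npy, which encodes neuropeptide Y, was at 409 ± 151 CPM beside 533 ± 189 in Exc_13. Nnat, an imprinted gene for a small membrane protein of the endoplasmic reticulum, was at 696 ± 191 beside 654 ± 206, and Sulf1 at 32.0 ± 9.4 in Exc_12 beside 32.0 ± 8.48. Of these 4, none was higher in Exc_12 than in Exc_13 in more than 8 of 12 libraries. Osr1 reached 22.4 times and Accn4 16.1 times the mean of the other clusters. The cadherin gene Cdh9 was at 41.3 ± 12.2 CPM in Exc_12 and 45.2 ± 10.4 in Exc_13, and Wscd1 at 35.0 ± 13.1 against 71.1 ± 15.9 in Exc_21.

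Among opioid genes, Exc_12 combined high Oprk1 with less Penk than Exc_13 or Exc_1 and with little Pdyn. Penk, which encodes the enkephalin precursor, had a UMI in 19.4% of Exc_12 and 61.4% of Exc_13 cells at P60, and in 20.1% and 64.2% at P21. Its level in Exc_12 was 40.1 ± 22.4 CPM against 286 ± 62.3 in Exc_1. Pdyn, which encodes the dynorphin precursor and so the main peptide ligand of the kappa receptor, was at 0.389 ± 0.599 CPM in Exc_12 and 45.3 ± 17.3 in Exc_2. Oprk1 itself had a UMI in 38.0% of Exc_12 cells at P60 and 32.6% at P21, against 3.48% and 3.31% of the other excitatory cells. Rgs4, a regulator of G protein signalling, had one in 38.4% of Exc_12 cells and 88.3% of the other excitatory cells at P60.

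Of 6014 genes at 20 CPM or more in the mean of the other clusters, 149 were below 0.5 times that mean in Exc_12. The lowest were Tshz2, Ddit4l (0.676 CPM), Expi (now Wfdc18; 0.436), Marcksl1 (0.462), Cux2 (0.907), Tcap (0.8), Coch (0.826), Igsf3 (0.836), Cpne8 (2.43) and Stxbp6 (1.39). Cux2, a homeobox gene of upper layers, had a mean of 60.7 CPM over the other clusters. Marcksl1, which encodes an actin-binding relative of MARCKS found in growing neurons, had a mean of 33.4 CPM there and was found in 4 of 805 Exc_12 cells and 4 of 443 Exc_13 cells.

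The comparison of P60 saline with P21 set the third week of life, when cortical circuits are still refined, against adulthood after saline self-administration. In Exc_12, 8 of 26 tested genes of growing neurons and 10 of 14 tested immediate early genes were lower at P60, whereas Snap25 and the glutathione transferase gene Gstt1 were among those higher. Of 7375 genes tested, 277 were higher at P60 (3.76% of those tested) and 428 lower (5.8%), where a call needed both an adjusted p under 0.05 and more than a 1.5-fold difference. Without the third P21 library 460 genes were called. The 3 libraries of P21 lay wholly above or below the 6 saline libraries for 217 of the higher and 362 of the lower genes. This order was counted for called genes only, not over all genes tested, and the call itself favours it. P21 cells received their cluster name from their correlation with P60 clusters, so genes that define the cluster are limited in how far they can differ.

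Some genes of axon growth and immature neurons were lower at P60. Of 27 listed, 26 were tested and 8 were lower at P60 (Marcksl1, Cd24a, Dpysl3, Dpysl5, Crmp1, Marcks, Ncam1 and Nnat), with 0 higher. The other 18 were not called, among them Tmsb4x at -0.0073 ± 0.11 and Stmn1 at 0.35 ± 0.11. The median log2 difference was -0.35 over the list and -0.0079 over all genes tested. Marcksl1 was at 38.0, 82.4 and 73.1 CPM at P21 and between 0 and 1.58 CPM in the saline libraries, with a median of 0. It had 118 UMIs in the first group and 2 in the second, a ratio of CPM of 117 with a counting interval of 31.8 to 980 (adjusted p = 1.04e-10). Cd24a, a surface glycoprotein of young neurons, was at 36.5, 48.6 and 50.1 CPM and then at 0 in all saline libraries but 1. It had 84 UMIs at P21 and 1 in the P60 saline libraries, a ratio of 167 with an interval of 29.2 to 6676 (adjusted p = 1.01e-09). Over all 12 P60 libraries Cd24a had 14 UMIs, 13 of them in cocaine libraries, and the ratio was 27.2.

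The collapsin response mediators, which act on microtubules in growth cones, changed less. Dpysl3 was at 45.6, 61.3 and 52.8 CPM at P21 and at 3.46, 20.9 and 35.3 CPM (lowest, median, highest) in saline libraries, a log2 difference of -1.20 ± 0.28 (SE, adjusted p = 0.00451). For Dpysl5 it was -1.41 ± 0.31 (adjusted p = 0.00242) and for Crmp1 -0.92 ± 0.15 (adjusted p = 0.000166). No saline library reached the lowest P21 library for any of these 3 genes. Nnat was at 1691, 2984 and 2795 CPM at P21 and between 402 and 1077 CPM in saline libraries (log2 difference -1.75 ± 0.31, adjusted p = 0.0109), so that this gene, high in the cluster at both ages, was also lower at P60.

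**Figure D3:**
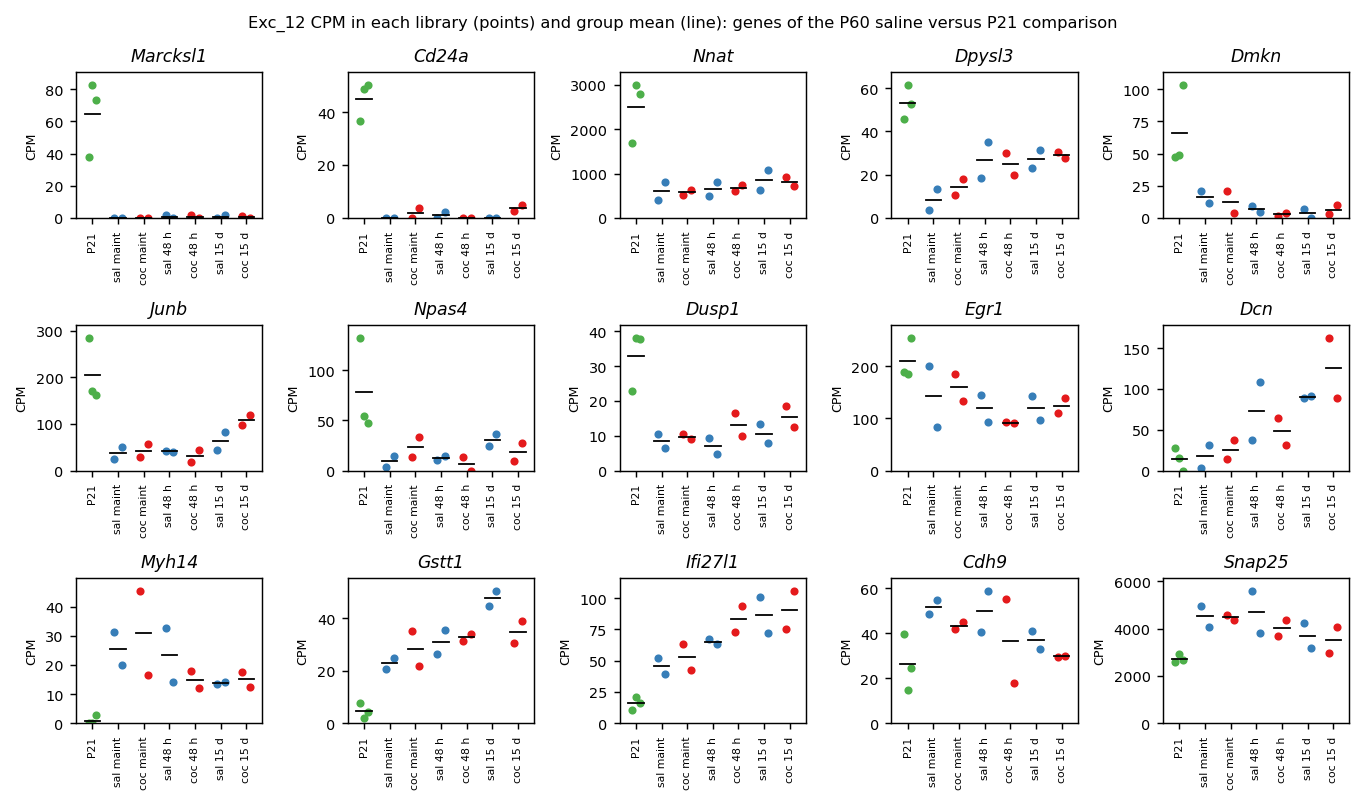
Each point is the CPM of a gene in the Exc_12 cells of 1 library (y axis from 0), lines are group means, and the x axis gives P21 (3 libraries) and the saline and cocaine groups of the 3 time points (2 libraries each). Marcksl1 and Cd24a lie near 0 in all P60 groups, Junb, Npas4 and Dusp1 are highest at P21 in mean level, and Dcn is highest in the groups of 15 days.

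Immediate early genes, which neurons transcribe within minutes of activity or stress, were lower at P60 in most cases. Of 22 listed, 14 were tested and 10 were lower (Egr1, Fosl2, Btg2, Ier5, Npas4, Jund, Junb, Dusp1, Nr4a3 and Jun), with 0 higher, and the list's median was -0.95. The median mitochondrial share of UMIs per Exc_12 cell was 4.01 to 4.21% in the P21 libraries and 2.73 to 3.47% in the saline libraries, with no overlap, and its part in these calls was not tested. Junb, of the AP-1 family, was at 284, 171 and 162 CPM at P21 and at 24.2, 42.9 and 81.9 CPM (lowest, median, highest) in saline libraries, with no overlap (log2 difference -2.03 ± 0.25, adjusted p = 0.000122). Npas4, a factor induced by calcium entry, was at 132, 55.0 and 47.4 CPM and at 3.46, 14.5 and 36.2 CPM (-1.96 ± 0.47, adjusted p = 0.0259). Dusp1, a phosphatase that shuts off MAP kinases, was at 22.8, 38.0 and 37.9 CPM and at 4.71, 8.61 and 13.4 CPM (-1.74 ± 0.32, adjusted p = 0.000551). These groups did not overlap for either gene. Egr1 overlapped, with 189, 186 and 254 CPM at P21 and a highest saline library of 201 CPM (-0.70 ± 0.20, adjusted p = 0.0268). Fos had a log2 difference of -1.37 ± 0.44 (adjusted p = 0.0833) and Arc of -0.53 ± 0.31 (adjusted p = 0.271), and neither passed.

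Promoters of 3 of the 10 lower immediate early genes are shown to let the letters sought be seen, and were chosen because they hold matches. The letters TGACG and their reverse complement CGTCA, the core of the site bound by CREB factors, were sought on both strands in the window from 250 bases before to 50 bases after each start (RefSeq, GRCm38.p6, not the build of the files), and overlapping matches on the 2 strands counted separately. Of 9 of the 10 lower genes with a window read, 5 held a match (55.6%; Btg2, Dusp1, Junb, Npas4 and Nr4a3), beside 20.8% of 32851 promoters of the same length. The windows follow 5′ to 3′ on the strand of the gene, with matches in capitals: Npas4 at chr19:4989922-4990221 on the minus strand, Dusp1 at chr17:26508423-26508722 on the minus strand and Nr4a3 at chr4:48045055-48045354 on the plus strand.
Npas4: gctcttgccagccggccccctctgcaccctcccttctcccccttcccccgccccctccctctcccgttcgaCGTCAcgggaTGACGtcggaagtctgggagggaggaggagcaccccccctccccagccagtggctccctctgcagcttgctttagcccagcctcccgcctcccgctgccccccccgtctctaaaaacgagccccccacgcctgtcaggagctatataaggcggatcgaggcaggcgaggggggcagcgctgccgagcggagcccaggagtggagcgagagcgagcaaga
Dusp1: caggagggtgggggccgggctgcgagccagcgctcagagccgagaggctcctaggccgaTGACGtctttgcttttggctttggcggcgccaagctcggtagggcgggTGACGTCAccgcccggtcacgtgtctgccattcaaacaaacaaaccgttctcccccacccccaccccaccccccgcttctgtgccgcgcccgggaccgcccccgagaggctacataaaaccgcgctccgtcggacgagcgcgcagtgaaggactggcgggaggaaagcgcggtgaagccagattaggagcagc
Nr4a3: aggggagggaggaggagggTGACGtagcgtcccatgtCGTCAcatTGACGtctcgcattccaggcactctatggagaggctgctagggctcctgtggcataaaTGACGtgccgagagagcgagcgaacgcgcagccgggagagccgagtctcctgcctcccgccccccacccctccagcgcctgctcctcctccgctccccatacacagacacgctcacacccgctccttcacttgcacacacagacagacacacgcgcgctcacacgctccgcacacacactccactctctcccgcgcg
They hold 2, 3 and 4 matches, Btg2 holds 2 and Junb 1, and the windows of Fosl2, Ier5, Jun and Jund hold 0. A match describes letters, not binding.

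Of 47 chromatin regulators listed, 36 were tested, beside 3.76% called higher and 5.8% lower over all genes. At P60, 2 were higher (Prmt1 and Ezh1) and 9 lower (Tet3, Hdac2, Tet1, Mbd3, Yeats4, Hmgn1, Prmt6, Dnmt3a and Chd3), with a median of -0.125. The paper itself names Prmt1, Ezh1, Mbd3, Yeats4, Dnmt3a and Tet1 as changed between these ages in excitatory neurons. The list is thus not independent of these data, and nothing about it as a group is read from the counts. Dnmt3a, the DNA methyltransferase that writes methylation in young neurons, was at 89.7, 142 and 139 CPM at P21 and between 30.6 and 56.7 CPM in saline libraries (log2 difference -1.31 ± 0.18, adjusted p = 2.12e-05). Tet1, which oxidises methylated cytosine, had a log2 difference of -1.38 ± 0.38 (adjusted p = 0.0136). The arginine methyltransferases Prmt1 and Prmt6 went opposite ways, at 1.12 ± 0.16 (adjusted p = 3.13e-05) and -2.19 ± 0.44 (adjusted p = 0.0012).

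In the lists of synapse, adhesion, channel and respiratory chain genes few members were called, beside 3.76% higher and 5.8% lower over all genes, and nothing about the lists is read from these counts. Snap25, a SNARE protein of vesicle release, was at 2576, 2940 and 2653 CPM at P21 and at 3156 to 5597 CPM in saline libraries, with no overlap (log2 difference 0.72 ± 0.14, adjusted p = 0.00117). Of 18 glutamate receptor genes tested, 1 was higher and 1 lower, the latter the juvenile NMDA receptor subunit gene Grin3a (-1.16 ± 0.29, adjusted p = 0.00668). Of 30 vesicle release genes tested, Snap25 was higher and Syt13 lower. Of 16 cadherins, Cdh9 was higher (0.78 ± 0.27, adjusted p = 0.0496) and Cdh4 lower, and of 25 axon guidance genes Nrp1 and Efnb3 were lower. Of 31 potassium and HCN channel genes Kcnab2 was higher, and of 20 sodium and calcium channel genes Cacna1i was lower. Of 79 nuclear respiratory chain genes tested, Ndufv1 and Ndufb4 were higher and Ndufab1, Cyc1, Uqcrfs1 and Cox5a lower, with a median of 0.27.

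No member passed among the 4 opioid, 8 neuropeptide, 12 GABA receptor, 12 heat shock, 27 cortical transcription factor, 5 neurofilament and microtubule-associated and 5 monoamine and muscarinic receptor genes tested. Oprk1 was at 47.1, 74.0 and 85.3 CPM at P21 and at 37.8, 69.6 and 93.5 CPM (lowest, median, highest) in saline libraries, a log2 difference of 0.07 ± 0.23 (adjusted p = 0.881). Npy had -0.61 ± 0.30 (adjusted p = 0.226), Osr1 -0.19 ± 0.23 (adjusted p = 0.633) and Penk -0.41 ± 0.50 (adjusted p = 0.642). Ptgds had 2.33 ± 1.21 (adjusted p = 0.26) and the heat shock gene Hspa1a 1.22 ± 0.58 (adjusted p = 0.202).

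The largest rises with no overlap were those of Myh14 (a nonmuscle myosin heavy chain), Gstt1, Hsf4 (a heat shock factor), Tnnt2 (cardiac troponin T), H2-T22, Ifi27l1, Il12a, Jsrp1, Plekha2, Efcab10, Synpr (synaptoporin) and Onecut2. Myh14 was at 0, 0 and 2.71 CPM at P21 and at 13.4 to 32.7 CPM in saline libraries. Gstt1 was at 7.6, 2.11 and 4.06 CPM and at 20.8 to 50.4 CPM (log2 difference 2.89 ± 0.41, adjusted p = 2.12e-05). The other 10 ranged from 1.82 (Onecut2) to 2.63 (Hsf4).

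Next to Marcksl1 and Cd24a, the largest falls were those of Hbb-b2, Hbb-b1, Dmkn, Gm10071, Dut, Prmt6, Zfp580, 2310036O22Rik, Pfn1 (profilin, an actin monomer binder) and Tmem93. Of these, 2310036O22Rik was at 281, 146 and 89.3 CPM at P21 and at 22.3 to 72.5 CPM in saline libraries, but at 185 and 147 CPM in the cocaine libraries of 15 days. Hbb-b1 and Hbb-b2 encode haemoglobin beta chains of red blood cells. Hbb-b1 was at 5150, 1266 and 231 CPM in the P21 libraries and at 46.2 to 222 CPM in saline libraries, and the P21 libraries differed widely among themselves. Markers of other cells had these summed levels in Exc_12 at the 2 ages, with ranges that overlapped except for the endothelial list. The 5 microglia markers summed to 8.12 to 113 CPM at P21 and 6.93 to 26.8 in saline libraries, the 5 oligodendrocyte markers to 120 to 406 and 41.3 to 161, the 4 endothelial markers to 116 to 146 and 52.0 to 85.1 CPM, and the astrocyte markers to 52.8 to 141 and 52.8 to 268 CPM. Their part in the calls was not tested. Without the 8 P21 cells of another deposited class, 726 genes were called, 676 of them among the 705.

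Whether the change with age differed between Exc_12 and the other excitatory neurons was tested as an interaction within libraries. The other excitatory cells were spread over their clusters differently at the 2 ages: Exc_20 held 8.34% of the excitatory cells at P21 and 1.21% at P60, Exc_9 8.56% and 2.94%, Exc_18 6.34% and 1.70%, and Exc_10 1.57% and 7.08%. A difference with age in these pooled cells can therefore not be told apart from a change in their mix, which does not enter the values against Exc_13 alone. Of 11487 genes, 48 passed (0.418%), 29 with a higher and 19 with a lower difference in Exc_12. Marcksl1 fell by more in Exc_12 than in all the other excitatory cells pooled, where its own log2 difference was -2.72 ± 0.13 (interaction -4.03 ± 0.59, adjusted p = 3.22e-07). Cd24a did likewise (-3.19 ± 0.32 elsewhere, interaction -4.03 ± 0.84, adjusted p = 0.00129). These fitted values rest on 2 and 1 UMIs in the P60 saline libraries of Exc_12. Marcksl1 was also named for its low P60 level in Exc_12 relative to other clusters, which favours a negative interaction. Its value is therefore not independent of that choice. Dmkn (interaction -1.54 ± 0.32) and Npas4 (-1.24 ± 0.22, adjusted p = 4.71e-05) were also lower in Exc_12, and Npas4 was the 1 immediate early gene of 21 tested to pass. Against Exc_13 alone Dmkn passed (-1.77, adjusted p = 0.0404), whereas Marcksl1 (-1.45, adjusted p = 0.935), Cd24a (-0.13, adjusted p = 0.981) and Npas4 (-0.07, adjusted p = 0.998) did not.

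Some genes high in the cluster had a smaller difference with age in Exc_12 than in all the other excitatory cells pooled. Sema3c, Sulf1 and Drd1a were named for their P60 level in Exc_12 relative to other clusters, which favours a positive interaction, so these values are not independent of that choice. Sema3c had a log2 difference of -0.18 ± 0.32 in Exc_12 and -1.46 ± 0.21 in the other excitatory cells (interaction 1.32 ± 0.26, adjusted p = 0.000367). Sulf1 had -0.42 ± 0.21 and -1.42 ± 0.28 (interaction 0.98 ± 0.26, adjusted p = 0.0314), and Drd1a 0.21 ± 0.25 and -0.94 ± 0.16 (interaction 1.16 ± 0.28, adjusted p = 0.0139). The median interaction was 1.15 over the 8 layer 6 intratelencephalic markers and 0.0036 over all genes tested, and 2 of the 8 passed. Oprk1 and Osr1 of this list were likewise named for their P60 level, and P21 cells were named by correlation with P60 clusters. The list's median is therefore not independent of these choices, and nothing about the list is read from it. Other marker lists had medians from -0.80 (layer 5 intratelencephalic) to 1.61 (oligodendrocyte). The endothelial and near-projecting lists, at 1.52 and 1.16, were also above that of layer 6 intratelencephalic cells. Bcl11b, a factor of deep layer projection neurons, had 0.70 ± 0.18 (adjusted p = 0.0242). Against Exc_13 alone none of these passed, with interactions of 0.32 for Sema3c (adjusted p = 0.973), 0.20 for Sulf1, 0.26 for Drd1a and 0.17 for Bcl11b (adjusted p = 0.981 for each of the 3).

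Dcn had a log2 difference of 2.28 ± 0.94 in Exc_12, which did not pass (adjusted p = 0.166), and -0.10 ± 0.39 in the other excitatory cells, and the interaction passed (2.51 ± 0.47, adjusted p = 0.000367). Against Exc_13 in place of all other excitatory cells the interaction was 3.26 ± 0.71 (adjusted p = 0.0122). Dcn was singled out for its level at P60, so its comparison with P21 is not independent of that choice. Ifi27l1 passed against all other excitatory cells (1.70 ± 0.25, adjusted p = 3.22e-07) but was at -0.23 against Exc_13. Without the third P21 library 27 genes passed in place of the 48. In all, 9 genes passed against Exc_13, 4 of them among the 48, and 36 of the 42 tested in both had the same direction. Of those 4, Grp, a neuropeptide gene, passed in opposite directions, at -0.68 ± 0.15 against all other excitatory cells and 1.83 ± 0.30 against Exc_13.

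Of the remaining genes with the largest interactions, Lpar1 (1.98 ± 0.45), Gpr83 (-1.95 ± 0.34) and Fam19a1 (-1.41 ± 0.36) had enough UMIs to be tested in Exc_12 alone. Gpr83, an orphan receptor, had a log2 difference of -0.11 ± 0.32 in Exc_12 and 1.83 ± 0.13 in the other excitatory cells, and its interaction against Exc_13 alone was -1.02 (adjusted p = 0.75). Phgdh, Shisa6, Dmrt2, Slc29a4, Car2, Lypd1 and Batf3 were too sparse for a test in Exc_12 alone. Phgdh had 0 UMIs in Exc_12 at P21 and Batf3 4, all in 1 library, with 0 in the 6 saline libraries, so their fitted differences depend on the prior count and are not bounds.

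**Figure D4:**
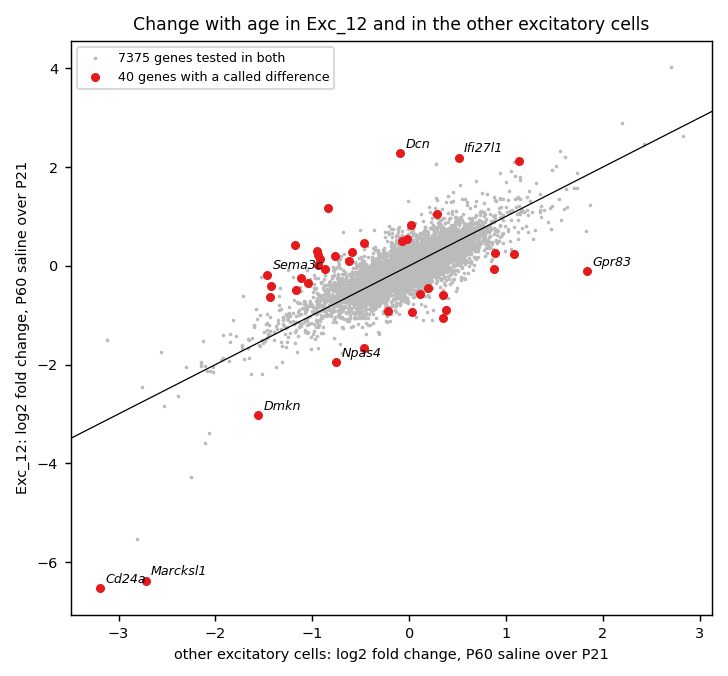
Each point is 1 of 7375 genes tested in both, with the log2 fold change of P60 saline over P21 in the other excitatory cells (x axis) and in Exc_12 (y axis). The line marks equal change and red points are the 40 of these genes whose interaction passed; Marcksl1 and Cd24a lie lowest, and Dcn above the line.

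The cocaine comparisons asked what differed in Exc_12 between cocaine and saline libraries at each phase. No library held both treatments and each group had 2 libraries, so cocaine cannot be told apart from differences between libraries. At maintenance 0 of 7936 genes were called (0.0%) and at 48 h of withdrawal 0 (0.0%), by edgeR and by DESeq2. At an unadjusted p below 0.05 there were 440 and 391 genes by edgeR and 142 and 127 by DESeq2. Oprk1 had log2 differences of -0.37 ± 0.28 and -0.22 ± 0.28 at these times, Npy of -0.23 ± 0.51 and -1.10 ± 0.51, and Fos of -0.67 ± 0.65 and -0.01 ± 0.80, with adjusted p of 0.961 and 0.998, 0.99 and 0.998, and 0.97 and 1.0.

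At 15 days of withdrawal, 81 genes were higher (1.02%) and 2 lower (0.0252%) in cocaine libraries. DESeq2 called 23 genes, 18 of them among these 83. Among the 5 largest rises, Fbxl15, of a ubiquitin ligase, was at 6.24 and 14.2 CPM in saline and 48.0 and 35.3 CPM in cocaine libraries (log2 difference 2.17 ± 0.38, adjusted p = 7.9e-05). Mrps34, a protein of the mitochondrial ribosome, was at 14.3 and 40.95 against 108 and 87.2 CPM (2.00 ± 0.38, adjusted p = 0.00947). Rnf126, Ccdc85b and Gpr25 had 2.05 ± 0.52, 1.99 ± 0.28 and 1.98 ± 0.48. Both cocaine libraries lay above both saline libraries for all 81, as for 15.1% of all genes tested, an order that the call itself nearly fixes. Of the lists, Grin2a, an NMDA receptor subunit gene (1.05 ± 0.26, adjusted p = 0.0162), Nrgn (0.90 ± 0.14), Yeats4 and Uqcrfs1 were called, each as the 1 member of its list, and 0 of 14 immediate early and 0 of 4 opioid genes were.

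Of the 2 lower genes, Ptgds, the prostaglandin D synthase of meninges and oligodendrocytes, was at 50.8 and 66.2 CPM in saline and 16.6 and 22.2 in cocaine libraries (-1.50 ± 0.30, adjusted p = 0.00118). The 5 oligodendrocyte markers summed to 156 to 161 CPM in the saline and 112 to 113 CPM in the cocaine libraries of 15 days. Their part in these calls was not tested. The layer 6 intratelencephalic markers summed to 239 to 245 CPM in the saline and 175 to 191 CPM in the cocaine libraries of 15 days, but 0 of the 6 tested were called, with a median log2 difference of -0.286.

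**Figure D5:**
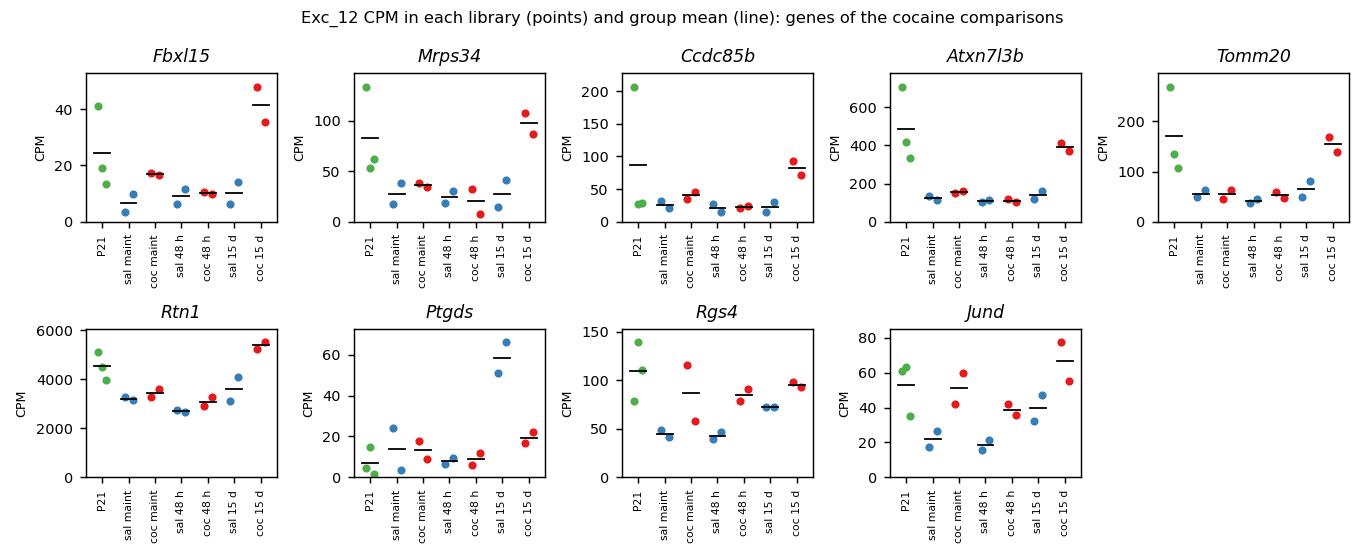
Each point is the CPM of a gene in the Exc_12 cells of 1 library (y axis from 0), lines are group means, and the x axis gives P21 (3 libraries) and the saline and cocaine groups of the 3 time points (2 libraries each). Fbxl15, Mrps34, Ccdc85b, Atxn7l3b, Tomm20 and Rtn1 are higher in both cocaine than in both saline libraries of 15 days, and Ptgds is lower.

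The higher genes were also higher outside Exc_12 in the same libraries. Both cocaine libraries lay above both saline libraries in the other excitatory cells for 81 of the 81, in inhibitory neurons for 77, in endothelial cells for 77, in astrocytes for 75, in microglia for 71 and in oligodendrocytes for 67, where 12.6 to 27.1% of all genes tested did so. In the other excitatory cells 107 of 13104 genes were called higher (0.817%), 30 of them among the 81. The difference of the change between Exc_12 and the other excitatory cells was called for 1 of 11540 genes (0.00867%), Scg2 (0.62 ± 0.12, adjusted p = 0.0035), and for 0 of the 81.

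Tomm20, Atxn7l3b and Dut were chosen from these genes after their values were seen, and how many others share the order below was not counted. The named genes lay above the 6 saline libraries both in the cocaine libraries of 15 days and at P21. Tomm20, of the mitochondrial import pore, was at 170 and 139 CPM in the former, at 269, 135 and 107 at P21 and at 37.4 to 80.3 CPM in the 6 saline libraries. Atxn7l3b was at 410 and 369 CPM, at 707, 416 and 334, and at 103 to 159 CPM. Dut, a dUTPase, was at 70.1 and 47.8, at 92.8, 55.0 and 65.0, and at 8.26 to 22.1 CPM. The age comparison and the comparison at 15 days share the saline libraries of 15 days, so their calls are not independent. Without the first saline library of 15 days 7 genes were called, 3 of them among the 83, and without the second 175 were, 82 of them among the 83. All 83 kept their direction in each alternative run. This was nearly fixed in advance, since for each of them the cocaine and saline libraries of 15 days did not overlap.

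Over the 3 time points, 8 genes were called (0.101%): Hrh3, Jund, Ccdc85b, Nuak1, Rgs4, Gm16517 and Atxn7l3b were higher and BC030499 lower with cocaine. Rgs4 was at 48.5 and 41.3 CPM in saline and 115 and 57.5 in cocaine libraries at maintenance, at 38.9 and 47.0 and at 79.2 and 91.6 at 48 h, and at 72.2 and 72.4 and at 97.8 and 93.5 at 15 days. Cocaine libraries were thus above saline at every time point (0.73 ± 0.16, adjusted p = 0.0145). Jund, of the AP-1 family, had the same order at each time (1.03 ± 0.20, adjusted p = 0.00651), and Rgs4 and Jund were the only called genes of the 8 for which it held. How many of all genes tested had this order was not counted, and a call favours it. DESeq2 called 0 genes in this comparison, with 213 at an unadjusted p below 0.05. The count was 61 without the second saline library of 15 days and 1 without the second cocaine library of maintenance. It was 3 without the first saline library or either cocaine library of 48 h, 4 without the first saline and 18 without the second cocaine library of 15 days.

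The cocaine difference over the 3 time points differed between Exc_12 and the other excitatory cells for 6 of 11540 genes (0.052%). Rgs4 was among them (0.87 ± 0.13, adjusted p = 2.13e-06), with a log2 difference of -0.15 ± 0.07 in the other excitatory cells. Cthrc1 (1.62 ± 0.37), Ass1, an enzyme of arginine synthesis (1.14 ± 0.26), and Hrh3, the histamine H3 receptor (1.07 ± 0.26), were higher in Exc_12 by this test, and BC030499 (-0.68 ± 0.16) and Figf, now Vegfd (-0.65 ± 0.13), were lower. Cthrc1 was at 0 and 6.61 CPM in saline and 10.5 and 20.4 in cocaine libraries at maintenance, at 0 and 7.06 and at 19.4 and 27.9 at 48 h, but at 11.6 and 29.9 and at 21.2 and 18.7 at 15 days, where the groups overlapped. With Exc_13 in place of all other excitatory cells 0 genes were called, with 346 at an unadjusted p below 0.05.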

How the data were processed

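Droplet-based single-cell RNA-seq was carried out by the authors on pooled PFC tissue. Per the paper's methods, the authors used Cell Ranger v.1.3.1 for alignment to mm9 and for UMI counting, a version listed as 13.1 in the submitters' processing notes, and clustered cells with Seurat 2.1.0. The deposited matrices and the deposited numbers of genes and UMIs per cell are raw counts, and the deposited mitochondrial share of a cell is a fraction. Cluster names are the authors', and P21 cells were named by correlation with P60 clusters. The table of cells also holds 4 label columns that were not used. The authors removed cells of high mitochondrial share and likely doublets (by gene number and by manual assessment of clusters), with a higher gene minimum for P60 neurons than for P21 cells, and no further filter on cells or doublets was applied.

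Raw counts were summed over the Exc_12 cells of each library with at least 10 of them. Of 26145 listed genes (304 of which share a symbol with another and were kept apart by identifier), 13 mitochondrial and 143 ribosomal protein genes, 9.5% of the Exc_12 UMIs, were left out. CPM use the 25989 remaining genes. Tests used edgeR 4.0.16 in R 4.3.3 (filterByExpr, TMM, robust quasi-likelihood tests), with Benjamini-Hochberg adjustment, and calls needed an adjusted p under 0.05 and over 1.5-fold: 3 P21 against 6 saline libraries, and cocaine against saline in 1 fit of 12 libraries with 6 group means. Interactions used 2 sums per library with library as covariate. Levels across clusters were not tested. Scripts used Python 3.11.15, numpy 2.4.6, scipy 1.17.1, pandas 2.3.3 and matplotlib 3.10.9, and were tested on simulated data. Gene positions are from GENCODE on NCBIM37. DESeq2 1.42.0, its size factors, no filter, a minimum of 30 cells, equal cell numbers, other library sets and single left-out libraries were alternatives. Chosen after seeing the data were the age fit and the age interaction without P21 cells of another class, the age fit without the saline libraries of 15 days, and the interaction at 15 days.

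The members and lists were chosen with earlier results of these data known. Genes were named by rule: 15 by the ratio to the highest other cluster and 10 by the ratio to the mean of the others (at 20 CPM or more), the 10 lowest, the 12 largest rises and 12 falls with age without overlap, 5 each way for cocaine, 8 each way for interactions, list members, and 7 genes of the study (Oprk1, Cdh9, Sema3c, Wscd1, Marcksl1, Ptgds and Hspa1a). Other named genes were chosen after their values were seen. Some genes that the rule names are not reported here.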

Additional observations from a re-analysis of the deposited data

Results flagged for a closer look

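Genes and the Exc_12 share of excitatory cells, 54 items in all, were checked for a library far from the rest of the 6 saline P60 libraries. Of these items 3, all genes, had one, and chance alone flags about 1 in 20 such groups. 2310036O22Rik was at 72.5 CPM in the second saline library of 15 days and between 22.3 and 38.0 in the others. Cd24a was at 2.35 CPM in the second saline library of 48 h, from 1 UMI, and at 0 in the others. Efcab10 was at 52.0 CPM in the first saline library of maintenance and between 32.7 and 39.6 in the others.

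The change from P21 to P60 saline differed, by the interaction test on the log2 scale, between Exc_12 and the other excitatory neurons for these genes among the largest: 8.95 for Phgdh, 4.52 for Shisa6, 3.87 for Dmrt2, 2.67 for Slc29a4, 2.51 for Dcn, 2.34 for Car2, 1.98 for Lpar1, 1.70 for Ifi27l1, -10.18 for Batf3, -4.03 for Cd24a, -4.03 for Marcksl1, -2.27 for Lypd1, -1.95 for Gpr83, -1.54 for Dmkn and -1.41 for Fam19a1. The values of Phgdh, Batf3, Cd24a and Marcksl1 rest on 0 to 2 UMIs in the P21 or the P60 saline libraries of Exc_12, and those of Phgdh and Batf3 on a group with 0.

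The cocaine difference over the 3 time points differed likewise for Cthrc1 (1.62), Ass1 (1.14), Hrh3 (1.07), Rgs4 (0.87), BC030499 (-0.68) and Figf (-0.65). At 15 days alone it differed for Scg2 (0.62).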

How the results depend on the processing

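The 705 age calls became 214 with every library thinned to 21 cells, 461 with DESeq2 and 460 to 830 with 1 library left out, lowest without P21 replicate 3 and highest without P21 replicate 1. With all 12 P60 libraries 672 were called, 501 of them shared, and without both saline libraries of 15 days 680, 547 of them shared. The counts at maintenance were 1 with no filter on low counts and 0 to 1 with 1 library left out. Those at 48 h were 2 with no filter, 1 with at least 30 cells per library and 0 to 2 with 1 left out. The 83 at 15 days became 23 with DESeq2 and 7 to 175 with 1 left out. The 8 over the 3 time points became 28 with no filter, 0 with DESeq2 and 1 to 61 with 1 left out, highest without the second saline library of 15 days and lowest without the second cocaine library of maintenance. The 48 age interactions became 9 against Exc_13 and 27 to 60 with 1 left out, lowest without P21 replicate 3, and 64 without the P21 cells of another deposited class. The 6 cocaine interactions became 0 against Exc_13 and 4 to 11 with 1 left out, highest without the first saline or the first cocaine library of 48 h. The cause of these shifts was not tested, beyond the lower number of cells or libraries where these were reduced.

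Of the values for named genes, 951 of 1109 kept direction and call for age and 158 lost the call. For age interactions 265 of 356 kept both, 86 lost the call and 5 reversed, all against Exc_13: Aldoc -0.11, Grp 1.83, Ifi27l1 -0.23, Nfia -0.12 and Sema3e -0.019. For cocaine interactions 51 of 90 kept both, at 15 days 148 of 176 and over the 3 time points 22 of 32, with no reversal. At 15 days the direction was nearly fixed in advance, since the groups did not overlap for the called genes. The ratios of levels between clusters stayed within 1 SD in 88 of 90 cases, the exceptions being 2010002N04Rik and Angpt1 in saline libraries alone. The SD was that between Exc_12 libraries, and each alternative reused the same P60 cells, so few cases could leave it. Sst counted as within it, although its ratio to the next cluster was 0.205 in saline libraries alone. The difference in share reversed to 0.181 percentage points of all retained cells and ranged from -1.35 to 1.07 with 1 library left out and none passed the test. No paired analysis was possible because replicate numbers only name libraries and the labels tie no libraries across groups. Depth limits sparse genes: fits in Exc_12 tested 7375 and 7936 of 25989 genes.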
